A study of Oryza sativa with 4 samples.

Results

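The type-A response regulators of rice are a family of small proteins that carry a phosphate-receiving domain and little else. Cytokinin, a plant hormone that promotes cell division and shoot growth, is bound by membrane histidine kinases, and the phosphate signal passes through phosphotransfer proteins to the type-B response regulators, which are transcription factors. Type-B factors switch on the type-A genes within a short time, and type-A proteins then dampen the same signal, so their transcripts are widely read as a gauge of cytokinin response in shoots and roots. The 10 members described here are RR1, RR2, RR3, RR4, RR5, RR6, RR7, RR9, RR10 and RR11, taken by their locus identifiers from a deposited table with 91960 rows, 37830 of them rice loci.

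RNA was sequenced from seedlings of 2 rice lines (Oryza sativa, japonica), the mutant bta1-1 and the wild type line SN9816, with 2 biological replicates each, all 7 days old and kept on days of 14 h light and 10 h darkness. Counted reads per library were 17332067 and 17365812 in bta1-1 and 20334851 and 15093108 in wild type. No source used here states the parent line of bta1-1, so the mutation and other differences between the lines cannot be told apart. The study asks how BTA1 acts on tiller angle and on shoot gravitropism through auxin. The bta1-1 mutation is known to lie in LAZY1, a gene that keeps rice shoots upright, and LAZY1 (OS11G0490600) had 70 and 89 reads in bta1-1 against 767 and 461 in wild type.

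Leaf genes (Rubisco small subunits, Rubisco activase and an antenna gene) and 5 of 6 root genes of iron and silicon uptake were read in all 4 libraries, while the silicon gene LSI2 had at most 1 read in any library. Of 3 shoot meristem genes, OSH1 and OSH15 never exceeded 5 reads, and OSH43 had 35 and 57 reads in bta1-1 against 29 and 22 in wild type. In such bulk samples, fewer cells of a type and less RNA per cell cannot be told apart.

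Per length, RR2 was the most abundant family member in every library. Levels between genes are given as FPKM, fragments scaled for gene length and library size, as deposited by the authors. RR2 stood at 13.5 and 14.6 FPKM in bta1-1 and at 16.8 and 13.1 FPKM in wild type. It made up 29.5% and 25.0% of the FPKM summed over the 10 members in the bta1-1 libraries, against 39.5% and 40.1% in the wild type libraries, so its share was lower in both mutant libraries while its own level overlapped between the lines. RR2 is known as a gene that the factor WOX11 represses during crown root growth.

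Behind RR2 came a middle group whose order shifted between libraries. By the mean over all 4 libraries it ran from RR10 at 5.89 FPKM through RR6 at 5.41, RR4 at 4.68 and RR1 at 4.27 to RR9 at 4.04 FPKM. The ranges of RR10 and RR6 overlapped within both groups, and so did those of RR1 and RR9. RR9 and RR10 are near-identical copies, and their places depend on how reads matching both were counted, which no source used here states. RR6 stood above RR4 in both bta1-1 libraries, at 5.42 and 9.23 against 3.70 and 5.02 FPKM, and below it in both wild type libraries, at 3.45 and 3.54 against 6.13 and 3.88 FPKM.

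The 4 least abundant members were RR11, RR3, RR7 and RR5, with means of 2.82, 1.65, 1.22 and 0.343 FPKM. RR3 and RR7 overlapped in bta1-1, whereas RR11 and RR3, and RR7 and RR5, overlapped in wild type. By mean CPM (counts scaled to a common library size with TMM factors), RR2 exceeded 63.9% of the 24396 genes tested and RR3 2.95% of them, so the family lay in the lower to middle part of the expression range.

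Of the 10 members, 6 were higher in both bta1-1 libraries than in either wild type library (RR1, RR5, RR6, RR7, RR9 and RR11), none was lower in both, and 4 overlapped. Over all genes tested, 23.7% lay wholly above and 23.2% wholly below wild type. RR5 did not pass the filter on low counts, which asks for about 0.576 CPM in at least 2 libraries, and RR7 passed it through the bta1-1 libraries alone, so the share among members that passed is no evidence about the family. Members were compared with edgeR's quasi-likelihood test, with p-values adjusted over all genes tested by the Benjamini-Hochberg method, and those with adjusted p under 0.05 are named as called. Of the 9 members tested, 0 were called, while 3 had an unadjusted p under 0.05 (RR6, RR7 and RR11), as did 17.8% of all genes tested. DESeq2 also called 0, against 7.03% of the genes it tested. Of all genes tested 5.41% were called, 2.77% as higher. The median log2 fold change of the 9 members was 0.68, beside -0.01 over all genes tested, and it was 0.72 over all 10 members when no filter was applied. RR7 entered the 0.68 median and the count of unadjusted p through bta1-1 alone, and RR5 entered the 0.72 median that way. RR9 and RR10, near-identical copies, count separately in both medians. Neither the medians nor that count are evidence about the family.

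**Figure D1:**
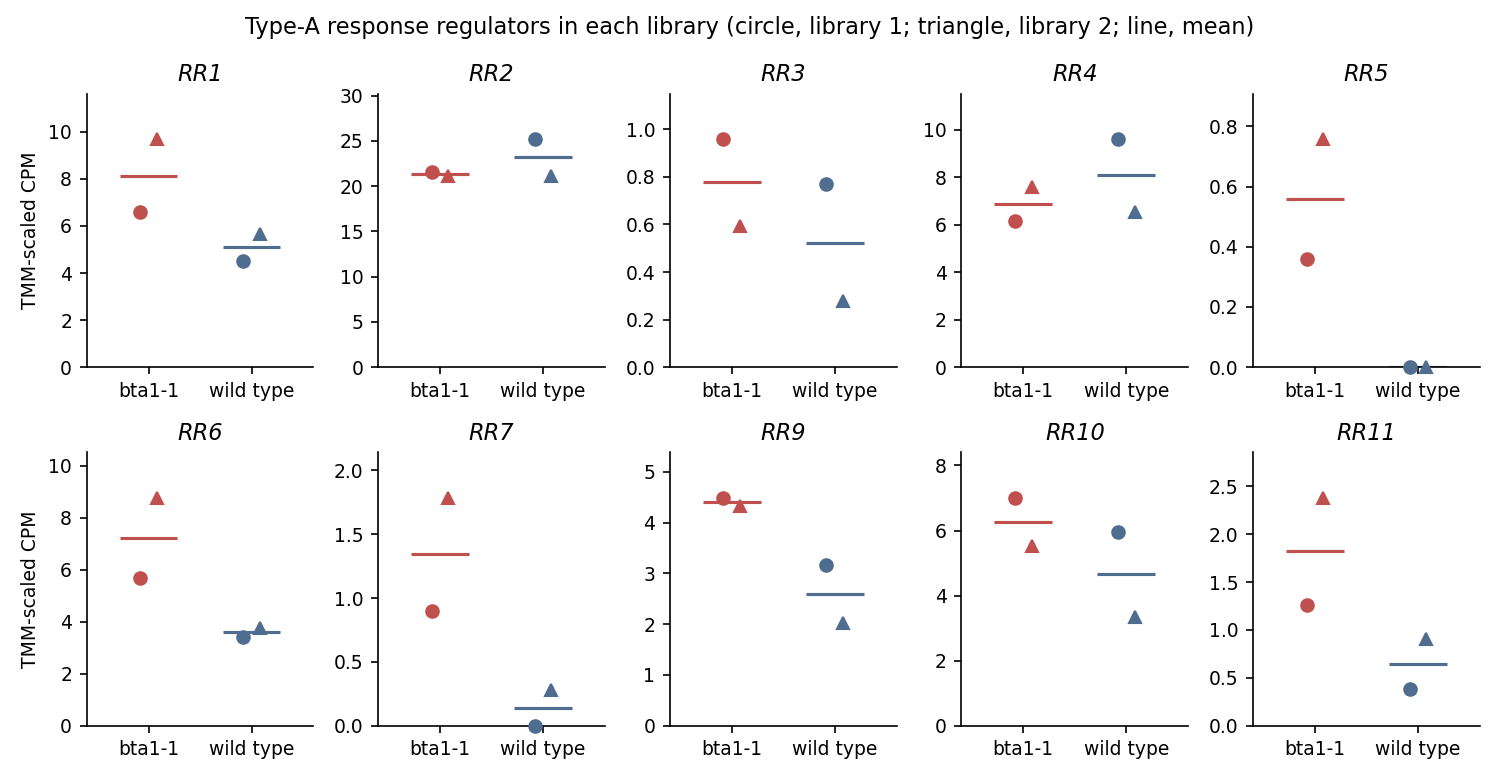
TMM-scaled CPM of each type-A regulator on its own linear axis, with bta1-1 to the left of wild type; circles are library 1, triangles library 2 and lines the mean of 2 libraries. RR1, RR5, RR6, RR7, RR9 and RR11 lie higher in both bta1-1 libraries than in wild type, and RR2, RR3, RR4 and RR10 overlap.

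RR7 (OS07G0449700), a sparsely read member, showed the widest difference among those tested. It had 15 and 33 reads in bta1-1 against 0 and 4 reads in wild type. Both mutant libraries lay above both wild type libraries, and bta1-1 library 2 was the higher one. The mean was 1.34 ± 0.628 CPM in bta1-1 and 0.14 ± 0.197 CPM in wild type (SD, n = 2 each), with a log2 fold change of 3.43 (SE 0.98, 95% interval 1.18 to 5.67) and an adjusted p of 0.0914 in edgeR, short of the threshold. The call changed with the filter and with the libraries kept, and the reason was not tested. With every gene of at least 1 read in the fit the edgeR adjusted p was 0.000923, in a fit that called 4.55% of its genes as higher. Leaving out wild type library 2, so that the remaining wild type library had 0 reads, gave an edgeR adjusted p of 0.0245, and leaving out bta1-1 library 1 gave 0.0381. The values were 0.265 with wild type library 1 left out and 0.352 with bta1-1 library 2 left out. The log2 estimate was 2.23 with wild type library 1 left out and 7.66 with wild type library 2 left out, the last set by the prior count because its wild type is at 0 reads.

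RR5 (OS04G0524300), whose overproduction is known to lower cytokinin sensitivity in rice, was read in the mutant alone. It had 6 and 14 reads in bta1-1 and 0 reads in both wild type libraries. A count of 0 allows up to 0.144 CPM in wild type library 1 and 0.209 CPM in wild type library 2, set by 3 reads and covering counting error alone, while bta1-1 stood at 0.36 and 0.758 CPM. Taken over each group, with 3 reads as the floor for wild type as a whole, RR5 in bta1-1 stood 6.66-fold above that floor. The ratio takes the 20 bta1-1 reads as exact and leaves out the spread between libraries, so it is no lower limit of the difference. RR5 was too sparse for the filtered test of all 4 libraries. It passed the filter without wild type library 1 or 2, with log2 estimates of 6.23 and 6.41. Both are set by the prior count because wild type is at 0 reads. Its edgeR adjusted p was 0.00767 without the filter, in a fit that called 4.55% of its genes as higher. DESeq2 gave an adjusted p of 0.0774. With limma on log2(FPKM + 1) of every gene above 0 FPKM, a setting that called 0.0316% of genes, it was 0.279.

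RR11 (OS02G0631700), another low member, had 21 and 44 reads in bta1-1 against 8 and 13 reads in wild type. At 1.26 and 2.38 CPM in bta1-1 and 0.384 and 0.907 CPM in wild type, the lines did not overlap, but each varied about 2-fold between its own libraries, by 0.92 in bta1-1 and by 1.24 in wild type on the log2 scale. The log2 fold change was 1.54 (SE 0.61, 95% interval 0.16 to 2.92, edgeR adjusted p = 0.223). Leaving out wild type library 2 gave an estimate of 2.23, leaving out wild type library 1 gave 1.00, and leaving out bta1-1 library 2 gave 1.03.

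RR6 (OS04G0673300) is known for the dwarf, cytokinin-insensitive plants that its overproduction gives in rice. It had 95 and 162 reads in bta1-1 against 71 and 54 in wild type. In CPM these were 5.69 and 8.77 in bta1-1 and 3.41 and 3.77 in wild type, so both mutant libraries were higher and they differed from each other more than the wild type ones did. The log2 fold change was 1.01 (SE 0.37, 95% interval 0.18 to 1.85, edgeR adjusted p = 0.179), and the estimate was 0.70 without bta1-1 library 2.

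RR1 (OS04G0442300), a target of the crown root factor CRL5, had 110 and 179 reads in bta1-1 against 94 and 81 in wild type. Scaled for library size, it stood at 6.59 and 9.69 CPM in bta1-1 and at 4.52 and 5.65 CPM in wild type, higher in both mutant libraries. The 95% interval of its log2 fold change of 0.68 (SE 0.35) ran from -0.11 to 1.47 (edgeR adjusted p = 0.363), so it held both no difference and a 2-fold rise.

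**Figure D2:**
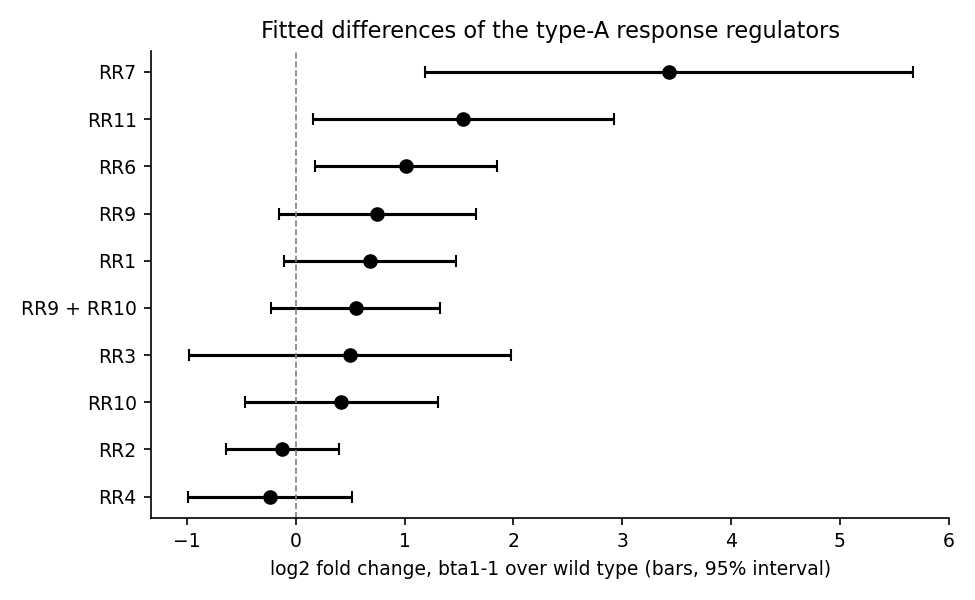
Fitted log2 fold change of bta1-1 over wild type (horizontal axis) for the 9 tested type-A regulators and for RR9 and RR10 counted as 1 gene, with 95% intervals as bars. RR7, RR11 and RR6 have intervals above 0, at 3.43, 1.54 and 1.01, and no adjusted p passed 0.05.

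RR9 (OS11G0143300) and RR10 (OS12G0139400) are near-identical copies at the matching ends of chromosomes 11 and 12, and their loss is known to change salt tolerance. How reads that match both were counted is stated in no source used here, so the split between them is uncertain. RR9 had 75 and 80 reads in bta1-1 against 66 and 29 in wild type, and RR10 had 117 and 102 reads in bta1-1 against 124 and 48 in wild type. In CPM, RR9 lay above wild type in both mutant libraries, at 4.49 and 4.33 against 3.17 and 2.02, and RR10 overlapped, at 7.01 and 5.52 against 5.96 and 3.35. Their log2 fold changes were 0.75 (SE 0.40) and 0.42 (SE 0.39), with edgeR adjusted p of 0.391 and 0.686.

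The sum of both copies does not depend on the split, but any reads left uncounted for matching both would be missing from it. It was 192 and 182 reads in bta1-1 against 190 and 77 in wild type, or 10.7 ± 1.17 CPM in bta1-1 and 7.25 ± 2.66 CPM in wild type (SD, n = 2 each). The log2 fold change of the sum was 0.55 (SE 0.34, 95% interval -0.22 to 1.32, edgeR adjusted p = 0.481), and wild type library 2 was the low one of the 4. RR9 supplied 39.1% and 44.0% of the summed reads in bta1-1 against 34.7% and 37.7% in wild type. The lowest of these shares had a 95% Wilson interval of 28.3% to 41.7% and the highest one of 36.9% to 51.2%, intervals that overlap and cover counting error alone. Both bta1-1 shares lay above both wild type shares.

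RR2, RR4 and RR3 overlapped between the lines. RR2 (OS02G0557800) had 359 and 389 reads in bta1-1 against 524 and 303 in wild type, or 21.3 ± 0.322 CPM in bta1-1 and 23.2 ± 2.85 CPM in wild type (SD, n = 2 each). As the most deeply read member it also had the narrowest error, with a log2 fold change of -0.12 (SE 0.23, 95% interval -0.64 to 0.39, edgeR adjusted p = 0.862). Its interval left out a 2-fold change in either direction.

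RR4 (OS01G0952500) had 103 and 140 reads in bta1-1 against 200 and 94 in wild type, with wild type library 1 the high one, and a log2 fold change of -0.24 (SE 0.33, edgeR adjusted p = 0.809). Without wild type library 1 the estimates turned to 0.06 for RR4 and 0.01 for RR2. RR3 (OS02G0830200), which like RR5 is known to lower cytokinin sensitivity when overproduced, had 16 and 11 reads in bta1-1 against 16 and 4 in wild type. Its log2 fold change of 0.50 carried a 95% interval of -0.98 to 1.98 (edgeR adjusted p = 0.79), so at this depth neither a fall nor a rise could be shown.

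The members did not all move in the same direction between replicates. In bta1-1, 6 of the 10 (RR1, RR4, RR5, RR6, RR7 and RR11) were higher in library 2 than in library 1 and 4 were lower. In wild type, RR1, RR6, RR7 and RR11 were higher in library 2, 5 members were higher in library 1, and RR5 was at 0 in both. RR2, RR3, RR9 and RR10 were higher in library 1 of both lines, by as little as 21.5 against 21.1 CPM for RR2 in bta1-1. Among members read in both lines, RR4 alone changed order. The labels do not say that a library number marks a shared batch. RR1, RR5, RR6, RR7 and RR11 thus reached their highest CPM in bta1-1 library 2. Summed over the family, CPM was 55.0 and 62.5 in bta1-1 against 53.0 and 44.0 in wild type.

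Markers of dividing cells also peaked in bta1-1 library 2. The 9 genes of that list (MCM helicase subunits, PCNA, B-type cyclins and CDKB2-1) summed to 119 and 255 CPM in bta1-1 against 49.6 and 21.6 CPM in wild type. Of these 9, 8 were called as higher, against 2.77% of all genes tested. Within wild type both patterns ran in opposite directions for RR1, RR6, RR7 and RR11, which were lower in library 1, where the division markers were higher. These wild type differences were small or rested on few reads. In libraries 1 and 2, RR7 had 0 and 4 reads and RR11 8 and 13. RR6 stood at 3.41 and 3.77 CPM and RR1 at 4.52 and 5.65 CPM. Whether these orders exceed counting error was not tested. None of the 9 regulators tested followed the order of the 4 libraries given by the division markers. RR5, at 0 in both wild type libraries, gave no order within wild type. The CPM summed over the 10 members did follow the order of the division markers. That sum was 62.5 and 55.0 in bta1-1 libraries 2 and 1, and 53.0 and 44.0 in wild type libraries 1 and 2. RR2, which overlapped between the lines, was its largest part. It gave 21.1 and 21.5 CPM in bta1-1 libraries 2 and 1, and 25.2 and 21.1 CPM in wild type libraries 1 and 2. Leaf markers summed to 28540 and 14065 CPM in bta1-1 against 15461 and 23325 CPM in wild type. Of these, the antenna gene CAB2R gave 18805 and 10654 CPM in bta1-1 against 8418 and 11540 CPM in wild type. CAB2R and Rubisco activase had positive log2 fold changes, 0.56 and 0.08, and the 4 Rubisco small subunits negative ones, from -0.24 to -1.04. Root markers summed to 642 and 846 CPM in bta1-1 against 1022 and 688 CPM in wild type, mostly from NAS1 and NAS2. Of the 6 leaf and 5 root genes tested, 0 were called by edgeR or DESeq2, against 5.41% and 7.03% of all genes tested. Of these leaf and root genes, 0 had an unadjusted edgeR p under 0.05, against 17.8% of all genes tested. In the edgeR fit without the filter the leaf gene RBCS4 was called lower (adjusted p = 0.0379). The part of these lists in the regulators' values was not tested.

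**Figure D3:**
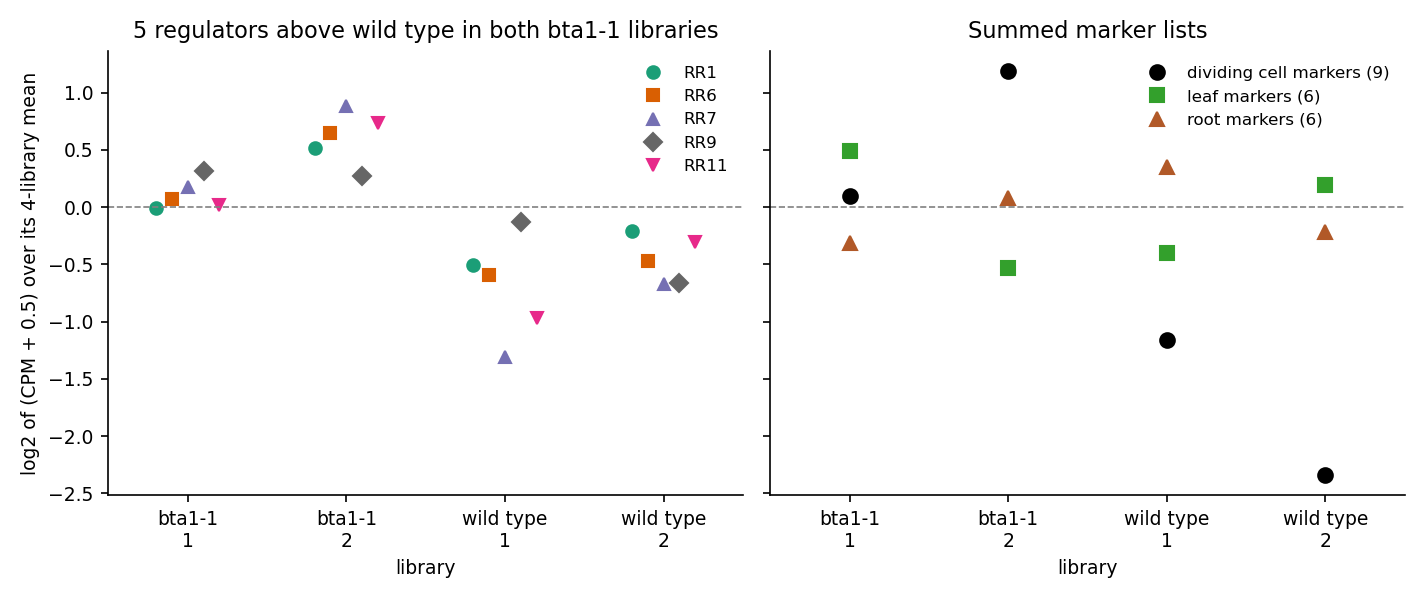
log2 of (CPM + 0.5) relative to the mean of the 4 libraries, by library, for RR1, RR6, RR7, RR9 and RR11 (left) and for 3 summed marker lists with their number of genes in brackets (right). RR1, RR6, RR7 and RR11 and the dividing cell markers are highest in bta1-1 library 2, while within wild type the markers are higher in library 1 and these 4 regulators in library 2.

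The loci around each member were also counted. Among the 10 tested loci on each side of a member, 0 of 20 were called around RR1, RR2, RR4, RR6, RR7, RR9 and RR10. Around RR3 3 of 20 were called, all higher, around RR5 2 of 20, both higher, and around RR11 2 of 20, 1 in each direction, against 5.41% of all genes tested.

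The rest of the cytokinin pathway was read from a list of 48 genes, of which 27 passed the count filter. In bta1-1, 2 were called higher and 1 lower, against 2.77% and 2.64% of all genes tested, and the median log2 fold change of the 27 was -0.03. All 3 calls fell in genes that make or destroy the active hormone. Such genes were most of the 27 tested, with 2 of synthesis, 9 of activation and 6 of breakdown. The 3 further type-A genes on that list, RR8, RR12 and RR13, had 0 reads in each library.

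Upstream of the family, 0 of 4 type-B factors, 0 of 2 phosphotransfer proteins and 0 of 4 receptors were called by edgeR or DESeq2. Of all genes tested, edgeR called 5.41% and DESeq2 7.03%, so 0 calls among so few genes do not show that these steps were unchanged. Only AHP1 among them had an unadjusted edgeR p under 0.05, as did 17.8% of all genes tested. The 4 tested type-B factors, which activate type-A genes, had log2 fold changes between -0.16 and 0.17, and RR26, the one with the smallest p, had -0.16 (SE 0.22, edgeR adjusted p = 0.804). AHP1, a phosphotransfer protein, stood at 30.4 and 36.1 CPM in bta1-1 against 19.4 and 21.7 CPM in wild type, both mutant libraries higher, with a log2 fold change of 0.69 (SE 0.23, edgeR adjusted p = 0.134). The receptor HK3 stood at 113 and 111 CPM in bta1-1 against 171 and 155 CPM in wild type, both lower, with -0.54 (SE 0.24, edgeR adjusted p = 0.288).

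Most synthesis genes had few reads or none. Of the 8 isopentenyltransferase genes (IPT), which make the first cytokinin precursors, 2 could be tested, IPT9 and IPT10, with log2 fold changes of -0.03 and -0.23 (edgeR adjusted p = 0.976 and 0.885). The other 6 had at most 11 reads in any library. The hydroxylases CYP735A3 and CYP735A4, which turn them into trans-zeatin types, had at most 4 reads.

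The LOG family releases the active free-base hormone from its nucleotide in a single step, and the founding gene LOG is known for keeping the shoot meristem of rice active. Of 9 tested LOG genes, 2 were called higher, against 2.77% of all genes tested. LOGL1 (OS01G0708500) had 407 and 395 reads in bta1-1 against 173 and 90 in wild type, or 22.9 ± 2.13 CPM in bta1-1 and 7.3 ± 1.44 CPM in wild type (SD, n = 2 each). It rose 3.12-fold (log2 fold change 1.64, SE 0.27, edgeR adjusted p = 0.012), and the edgeR adjusted p stayed under 0.05 without each library in turn, in fits where the line left with 1 library is assumed to vary like the other. LOGL4 (OS03G0697200) had 45 and 97 reads in bta1-1 against 12 and 12 in wild type and rose 5.67-fold (log2 fold change 2.50, SE 0.52, edgeR adjusted p = 0.0302). The LOGL4 call was lost with wild type library 1 left out (edgeR adjusted p = 0.103) and with bta1-1 library 2 left out (0.124). With limma applied to every gene above 0 FPKM, on log2(FPKM + 1), a setting that called 0.0316% of genes, LOGL1 and LOGL4 had an adjusted p of 0.152 and 0.269.

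Opposite to these, LOGL3 stood at 8.33 and 10.1 CPM in bta1-1 against 18.5 and 19.1 CPM in wild type, both mutant libraries lower, and came close to the threshold (log2 fold change -1.03, SE 0.26, edgeR adjusted p = 0.056). LOGL3 was called lower by DESeq2 (adjusted p = 0.0363). LOG itself, the most abundant of the list by reads, overlapped at 646 and 384 CPM in bta1-1 and 540 and 726 CPM in wild type.

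Cytokinin oxidases (CKX) break the hormone down, and 1 of 6 tested was called lower, against 2.64% of all genes tested. CKX11 (OS08G0460600), known from leaf senescence, had 153 and 157 reads in bta1-1 against 384 and 300 in wild type. It fell to 8.83 ± 0.473 CPM in bta1-1, against 19.7 ± 1.76 CPM in wild type (SD, n = 2 each; log2 fold change -1.16, SE 0.25, edgeR adjusted p = 0.0346). Without wild type library 1, wild type library 2 or bta1-1 library 2, the CKX11 call was lost (edgeR adjusted p = 0.0701, 0.151 and 0.0968), and by limma on log2(FPKM + 1) it had an adjusted p of 0.0887. CKX9, which strigolactone is known to induce, had 5 and 7 reads in bta1-1 against 23 and 14 in wild type and was not called (log2 fold change -1.60, SE 0.57, edgeR adjusted p = 0.172). CKX3 had 31 and 57 reads in bta1-1 against 26 and 11 in wild type, also uncalled (log2 fold change 1.27, SE 0.50, edgeR adjusted p = 0.223), so the oxidases did not share a direction. CKX2, the grain number gene Gn1a, was too sparse to test, with 1 and 2 reads in bta1-1 against 8 and 5 in wild type.

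**Figure D4:**
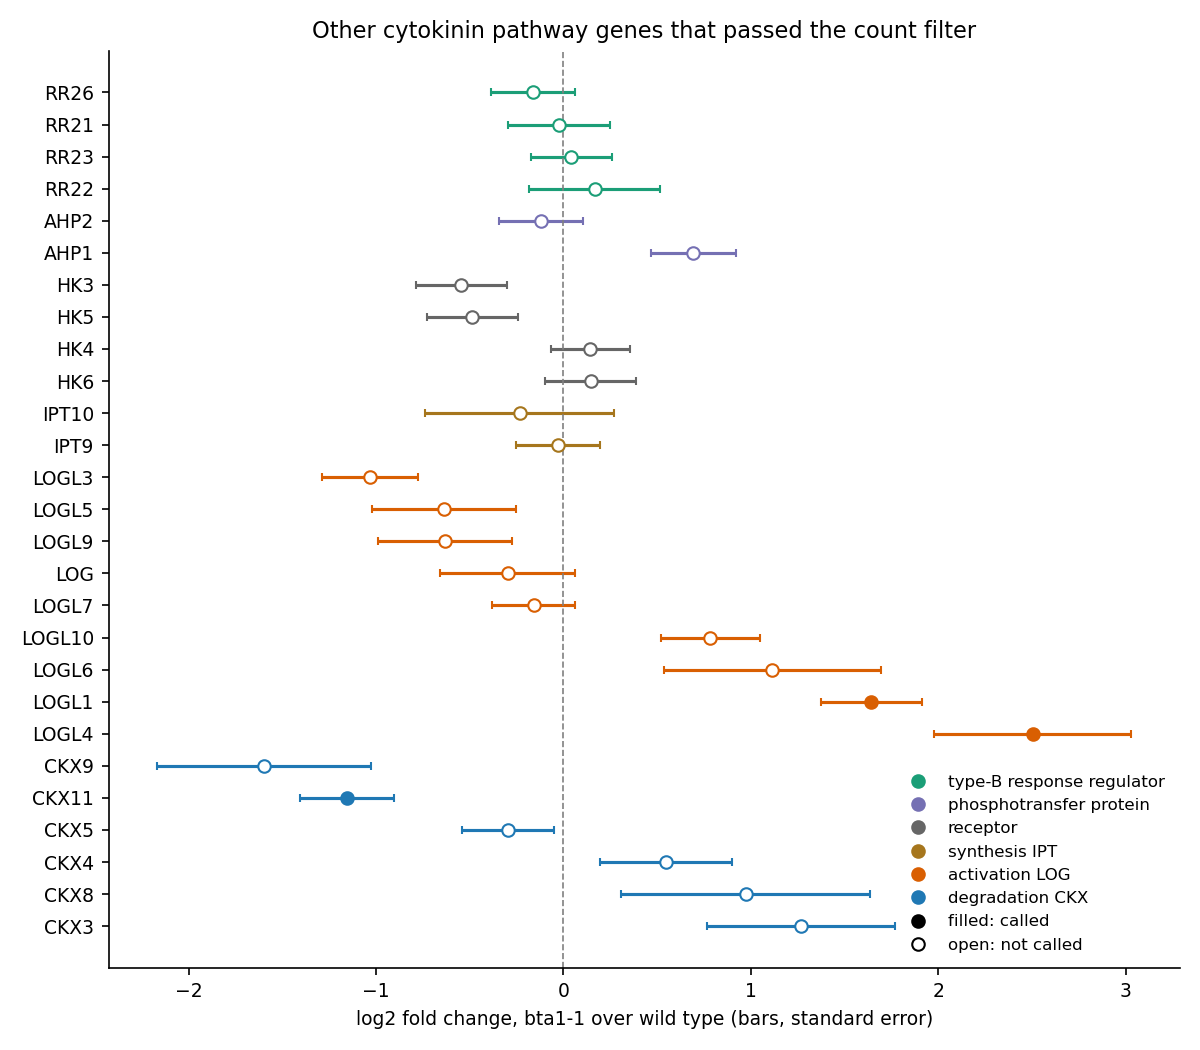
log2 fold change of bta1-1 over wild type (horizontal axis) with standard errors for 27 tested cytokinin pathway genes, coloured by role, with filled points for called genes. LOGL1 and LOGL4 are called higher and CKX11 lower, and the type-B factors lie between -0.16 and 0.17.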

How the data were processed

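Seedling RNA was turned into Illumina libraries with a NEBNext kit, per the labels' protocols, and the 4 libraries were grouped by their labels. The authors deposited raw read counts for each gene. FPKM values, scaled by gene length and library size, were deposited by the authors for the same genes. HTSeq 0.6.1, TopHat2 2.0.12, Bowtie2 2.2.3 and the build IRGSP-1.0 are listed, without their roles, per the submitters' processing notes. The strand setting and annotation release are stated in no source used here, so overlapping genes cannot be told apart. No genome coordinates or sequences are given because none of that build was used here.

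Counts were fitted with edgeR 4.0.16 in R 4.3.3 (TMM, filterByExpr with a minimum count of 10 and total of 15, robust quasi-likelihood, no term but group, two-sided, Benjamini-Hochberg over the 24396 genes kept); standard errors are the log2 fold change over the square root of F, and intervals use the fit's degrees of freedom. The script was tested on simulated data. Alternatives used DESeq2 1.42.0 and limma 3.58.1. An exact permutation test of 2 against 2 cannot go below p = 0.333. Replicates were not copies of 1 library, with chi-square per degree of freedom of 48.4 in bta1-1 and 35.1 in wild type. The design text calls the replicates biological without naming separate plants or trays, so p-values measure the spread between these samples.

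The members and lists were chosen with earlier results of these data known. Of 84 name and locus pairs, 56 matched a RefSeq gene table of another assembly by symbol, chromosome and rank, 27 symbols (RR3 and LAZY1 among them) were not in it, and 1 was contradicted and dropped. Named pathway genes are those called and, per role without a call, the one with the smallest p; LOGL3, LOG, CKX9, CKX3, CKX2 and IPT9 were chosen after their values were seen.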

Additional observations from a re-analysis of the deposited data

How the results depend on the processing

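Over 17 named genes and 14 alternatives, 215 of 238 values kept direction and side of the threshold, 13 lost a call, 7 gained one and 3 changed sign. The 17 leave out RR5, which the main fit did not test, and LOGL3, LOG, CKX9, CKX3, CKX2 and IPT9. Without a library in turn, the log2 fold change of RR2 ran from -0.24 to 0.0081 and that of RR4 from -0.48 to 0.064. Both were positive without wild type library 1. The log2 fold change of IPT10 ran from -0.83 to 0.23, positive without bta1-1 library 2. Of the type-A members, 2 were called higher with no filter (RR5 and RR7), 1 on log2(FPKM + 1) (RR7), where 2.03% of all genes were called higher, and 0 to 1 without a library in turn, where 1.58% to 4.71% were; none was called lower under any alternative. Their median log2 fold change ran from 0.66 to 0.96 without a library in turn. Both ends came with a wild type library left out, when RR5 passed the filter and entered the median. Over the 9 members of the main fit, the median was 0.93 without wild type library 1, the value of RR6. It was 0.48 without wild type library 2, the value of RR9. RR9 and RR10 as 1 gene stayed uncalled throughout.

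Pathway genes called lower numbered 2 with no filter and by DESeq2, 0 on log2(FPKM + 1), 0 on log2(FPKM + 0.1), 0 on log2(FPKM + 1) for all genes, and 0 to 2 without a library in turn; those called higher numbered 0 on log2(FPKM + 1) for all genes and 1 to 3 without a library in turn. All genes called higher and lower numbered 1582 and 1322 with no filter and 2 and 9 on log2(FPKM + 1) for all genes. Without a library in turn they ran from 401 to 1202 and from 482 to 854, and higher calls made up 39.9% of calls with wild type library 2 left out and 58.5% with bta1-1 library 1 left out, against 51.2% with all libraries. The cause of these changes was not tested.

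With the replicate block (replicate number as an added term), 1 pathway gene was called higher and 0 lower, and 359 and 415 of all genes; no type-A member was called. The labels do not say that a number marks a shared batch, and the deviations of same-numbered libraries had a correlation of -0.43 across genes. A crossed pairing, chosen after seeing the data, called 2 type-A members higher, 5 pathway genes higher and 2 lower, and 1972 and 1772 of all genes.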
